A study of Mus musculus with 14 samples.

Results

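The genes described here make milk proteins or serve the alveolar cells that secrete milk, and they were chosen by name from the gene symbols. The list held 10 genes, and 6 of them had a row in the deposited table of 16124 genes: Csn1s1, Csn3, Lalba, Mfge8, Btn1a1 and Xdh. The other members, Csn2, Csn1s2a, Wap and Glycam1, are not analysed here. Every gene of the table reached 10 fragments in 7 or more of the 14 libraries, so the 6 genes had passed a filter on low values. No value was seen for the other members.

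The RNA came from mammary epithelial cells (MECs) of 7 wild-type (WT) and 7 Usp22 OE/OE female mice, 1 library per mouse. All mice were nulliparous and 3.5 months old, and each OE/OE mouse was matched with a WT littermate, giving 7 litters numbered 1, 3, 4, 5, 6, 7 and 8. OE/OE mice were homozygous for a Usp22 transgene at the Rosa26 locus under the CAGGS promoter, and Zp3-Cre had removed its STOP cassette in the germ line, so the transgene was on in all tissues and not in the epithelium alone. The cells came from mammary glands 2, 3 and 4 that were digested with collagenase and hyaluronidase and enriched for epithelial organoids by short spins, a preparation that can hold other cells. The stage of the estrous cycle of each mouse was not given in the sources used here.

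The libraries held 20125106 to 41835978 counted fragments, and the WT libraries of litters 1 and 8 were the shallowest. Usp22 had 3500 to 5380 normalized counts in WT and 74948 to 144288 in OE/OE mice, in accord with the genotype labels. The epithelial keratin Krt8 had 99133 to 180962 normalized counts and the surface protein gene Epcam had 34412 to 67665, so epithelial RNA was present in all 14 libraries. RNA of other cells was present as well. The fibroblast gene Col1a2 had 14059 to 50459 normalized counts and the endothelial gene Pecam1 had 3764 to 24074. A normalized count is the fragment count of a gene divided by the size factor of its library, which adjusts for depth.

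Caseins are the phosphoproteins that carry calcium in milk, and they are built into micelles with kappa-casein at the surface. Alpha-lactalbumin turns a Golgi galactosyltransferase into the enzyme that makes lactose, and the sugar draws water into milk. Fat leaves the cell as globules wrapped in plasma membrane, and butyrophilin and xanthine oxidoreductase take part in that step. In the nulliparous gland the casein and alpha-lactalbumin genes are expressed in a part of the luminal cells, and their levels rise in pregnancy and lactation when prolactin acts through the transcription factor STAT5. Which cells held the RNA of each of the 6 genes was not measured here.

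Mfge8, which encodes the milk fat globule protein lactadherin, was the most abundant of the 6 genes per length of transcript. Its median over the 14 libraries was 492 FPKM (fragments per kilobase of the longest coding transcript, scaled to the depth of the library), with a range of 316 to 1302. Csn3, which encodes kappa-casein, followed with a median of 195 (64.2 to 390), and Mfge8 lay above it in 14 of 14 libraries. Btn1a1, the butyrophilin gene, had a median of 25.3 (2.83 to 69.8) and lay below Csn3 in 14 of 14 libraries. Xdh, the gene of xanthine oxidoreductase, had a median of 23.0 (16.0 to 39.4), and Btn1a1 lay above it in only 9 of 14 libraries, so these neighbours were not ordered beyond their spread. Lalba, the alpha-lactalbumin gene, had a median of 10.0 (2.37 to 44.6) and lay below Xdh in 13 of 14 libraries. Csn1s1, the alpha-s1-casein gene, was the lowest with a median of 0.234 (0.0366 to 10.0), below Lalba in 13 of 14 libraries. The libraries out of order were the OE/OE mouse of litter 3 for Lalba and Xdh and the OE/OE mouse of litter 4 for Csn1s1 and Lalba. The levels depend on the length used. Per kilobase of the union of all exons, a length chosen after seeing the data, the medians were 223 for Mfge8, 75.0 for Csn3, 21.05 for Btn1a1, 11.5 for Xdh, 10.0 for Lalba and 0.0529 for Csn1s1. The medians fell in the same order, but Xdh then lay above Lalba in only 9 of 14 libraries and Btn1a1 above Xdh in 11, so Xdh and Lalba were ordered only on the length of the coding transcript. Together the 6 genes took between 0.101% and 0.381% of the fragments of a library.

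Csn1s1 lies on the plus strand of chromosome 5 of GRCm38, from 87666208 to 87682578. In the 7 WT mice it had 2.03 normalized counts at the lowest, 4.65 at the median and 184 at the highest. In the 7 OE/OE mice the lowest value was 1.75, the median 15.4 and the highest 506.9. The groups overlapped over almost their whole range, and in each genotype a few mice had high values while the rest had 27.0 or less. The high mice were WT 1, WT 3 and WT 5 (184, 51.6 and 83.9) and OE/OE 3 and OE/OE 4 (506.9 and 423). These values rest on 2 to 538 fragments, and 6 of the 14 libraries had under 10, so counting error is large in the low mice.

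Since casein genes are known targets of STAT5, the promoter of Csn1s1 is shown beside that of Mfge8, the most abundant member. The sequences are the 250 bases before the transcription start in RefSeq on GRCm38.p6, written 5′ to 3′ on the strand of the gene, and capitals mark the letters TTCNNNGAA, the core that STAT proteins bind. Of the 6 genes, 3 matched the promoter table, and 2 of these had the same start in GENCODE and are printed.
Csn1s1, chr5:87665958-87666207, plus strand: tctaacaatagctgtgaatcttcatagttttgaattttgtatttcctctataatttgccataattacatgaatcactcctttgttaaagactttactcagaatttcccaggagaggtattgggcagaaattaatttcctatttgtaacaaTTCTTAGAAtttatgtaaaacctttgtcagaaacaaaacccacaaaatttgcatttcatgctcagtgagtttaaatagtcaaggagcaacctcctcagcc
Mfge8, chr7:79149061-79149310, minus strand: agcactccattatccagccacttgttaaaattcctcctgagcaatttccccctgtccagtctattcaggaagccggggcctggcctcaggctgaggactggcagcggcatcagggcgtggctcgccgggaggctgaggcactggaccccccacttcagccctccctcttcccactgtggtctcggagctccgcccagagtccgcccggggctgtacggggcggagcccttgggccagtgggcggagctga
The Csn1s1 window held 1 match, TTCTTAGAA, with its first base 100 bases before the start. The Mfge8 window held none. Of 32851 windows of this length in the table, 2306 (7.02%) held a match on at least 1 strand, the motif being its own reverse complement. The GC content was 32.8% for Csn1s1 and 65.2% for Mfge8, against a median of 52.4% over all windows. A match in letters is not a binding site, and binding was not measured here.

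Csn3 lies 3′ of Csn1s1 in the casein cluster of chromosome 5 (87925579 to 87932665, plus strand), and unlike Csn1s1 it was high in every mouse. WT mice had 9363 normalized counts at the lowest, 9760 at the median and 17497 at the highest. OE/OE mice had 3767 at the lowest, 13344 at the median and 22352 at the highest. The WT values sat close together apart from WT 1, whereas the OE/OE values reached both below and above all WT mice. The lowest was OE/OE 5 and the highest OE/OE 3.

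Lalba lies on the minus strand of chromosome 15 (98480400 to 98482721). Its WT values ran from 146 through a median of 281 to 515 normalized counts. Its OE/OE values ran from 63.3 through a median of 134.5 to 1235. Thus 4 OE/OE mice (1, 4, 5 and 7) lay below every WT mouse and OE/OE 3 lay above every WT mouse. In litter 4 the OE/OE mouse had the second highest Csn1s1 value of the 14 and the lowest Lalba value, so these milk protein genes did not rank the mice alike.

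**Figure D1:**
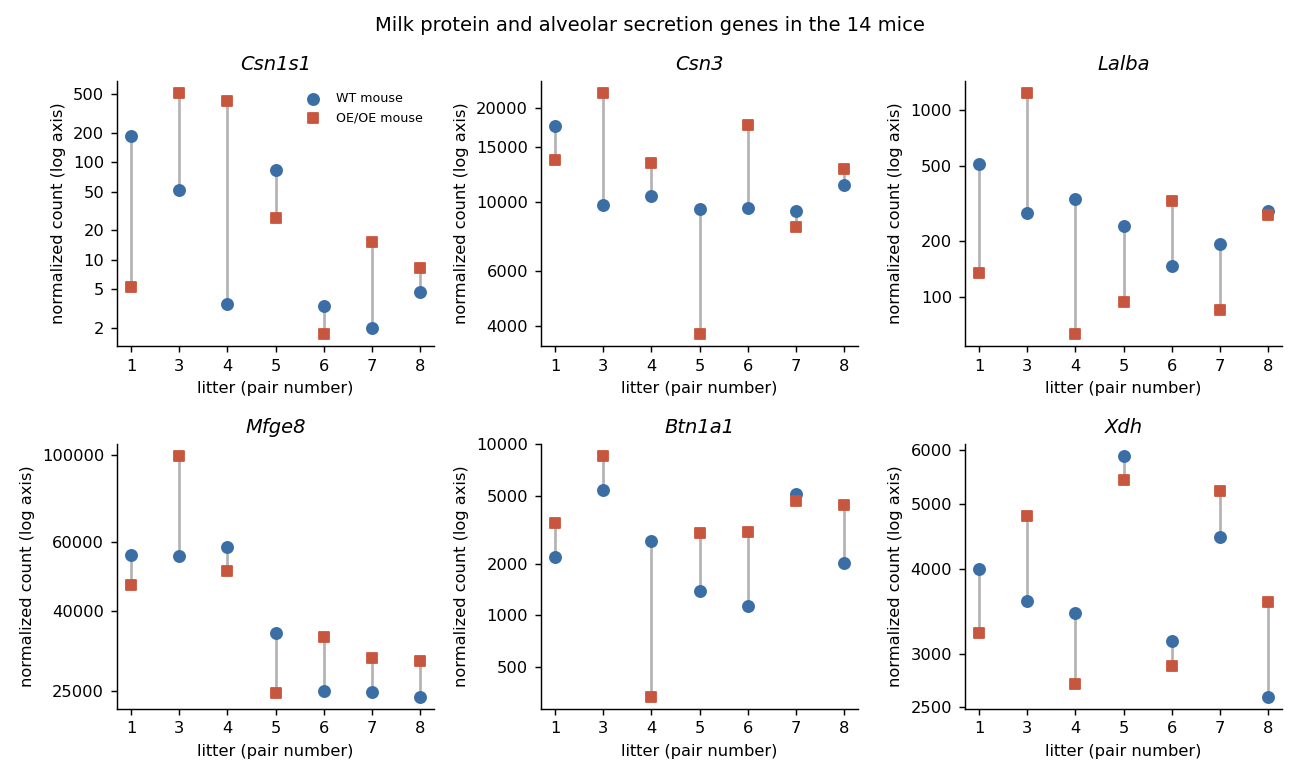
Normalized counts of the 6 genes (y axes, logarithmic) in each litter (x axes), with WT mice as circles, OE/OE mice as squares and a line joining littermates. OE/OE 3 was the highest mouse of 14 for every gene but Xdh, and in no gene did the squares lie all above or all below the circles.

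Mfge8 (chromosome 7, 79133768 to 79149060, minus strand) had 24133, 35101 and 58288 normalized counts at the lowest, median and highest WT mouse. The OE/OE values were 24715, 34259 and 99398. Both genotypes showed the same division by litter: all 6 mice of litters 1, 3 and 4 had at least 46500 normalized counts and all 8 mice of litters 5 to 8 had at most 35101. This division was noticed in the values.

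Btn1a1 (chromosome 13, 23456992 to 23465901, minus strand) had 1130 normalized counts at the lowest, 2188 at the median and 5409 at the highest WT mouse. The OE/OE mice had 335, 3456 and 8583. A single OE/OE mouse, that of litter 4, lay below the WT range, at 335 normalized counts against 3046 in the next OE/OE mouse. The same mouse had the highest proliferation score of the 14.

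Xdh (chromosome 17, 73883895 to 73950196, minus strand) varied least in OE/OE mice. The WT mice had 2590, 3592 and 5885 normalized counts at the lowest, median and highest, and the OE/OE mice had 2705, 3575 and 5418. The highest mouse of each genotype was that of litter 5, so the ranges almost coincided.

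The spread between mice of 1 genotype was described as the SD of log2(normalized count + 1) over 7 mice. Csn1s1 had an SD of 2.45 in WT and 2.94 in OE/OE, and 99.9% of all genes had a smaller SD in each genotype. In WT mice the SD was 0.87 for Btn1a1, 0.60 for Mfge8, 0.58 for Lalba, 0.38 for Xdh and 0.32 for Csn3. The median of the 6 genes was 0.59, against 0.35 for all genes. In OE/OE mice the SD was 1.48 for Lalba, 1.47 for Btn1a1, 0.84 for Csn3, 0.68 for Mfge8 and 0.42 for Xdh, with a median of 1.16 against 0.45 for all genes. The SD was larger in OE/OE than in WT mice for 6 of the 6 genes, but this held for 77.1% of all genes as well, and the difference in spread was not tested. Low genes vary more than high ones in such data, and Csn1s1 was the lowest of the 6.

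**Figure D2:**
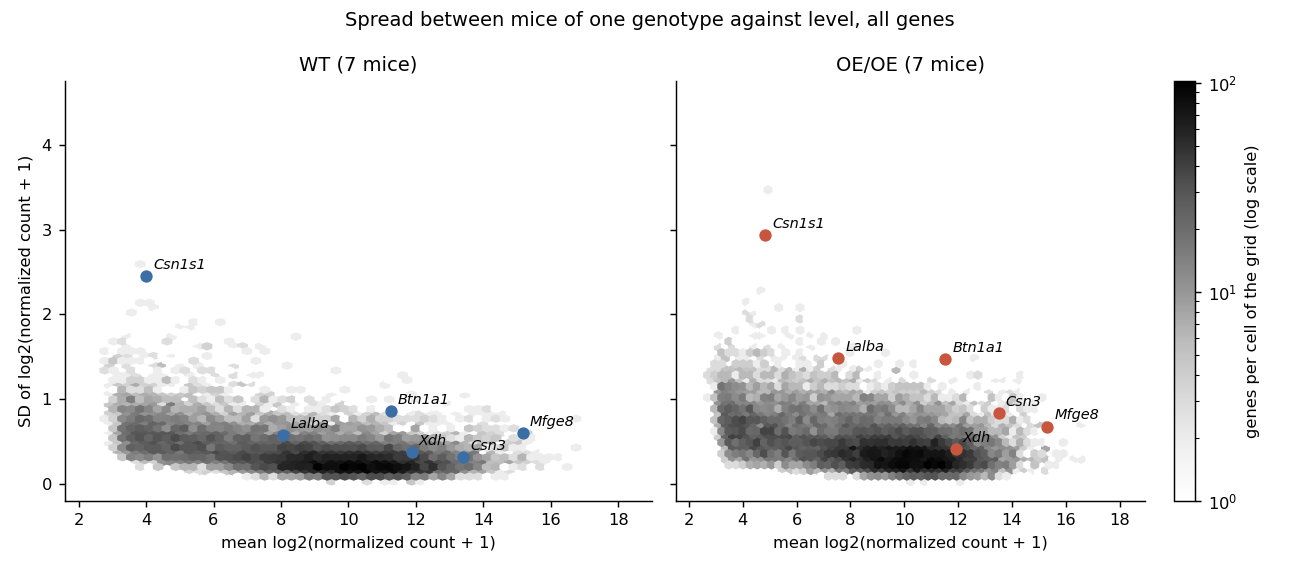
SD of log2(normalized count + 1) over 7 mice (y axes) against the mean on the same scale (x axes) for WT (left) and OE/OE (right), with all genes in grey and the 6 milk genes as labelled points. Csn1s1 lay near the top in each genotype, at 2.45 and 2.94, and Lalba and Btn1a1 lay higher in OE/OE (1.48 and 1.47) than in WT (0.58 and 0.87).

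Whether litters differed was tested with the moderated F test of limma on the 6 litter terms, with genotype in the model. Each litter was a single littermate pair. A difference between litters therefore cannot be told apart from any handling that the mice of a pair shared. Mfge8 (F = 7.50, limma adjusted p = 0.0187) and Xdh (F = 5.65, limma adjusted p = 0.0351) differed between litters. The other 4 genes did not pass, with limma adjusted p of 0.197 for Btn1a1, 0.249 for Csn3, 0.287 for Csn1s1 and 0.427 for Lalba. Thus 2 of the 6 milk genes were called, and 33.3% of all genes were called by the same rule, so the share of the milk genes stood at the background. At an unadjusted p of 0.05 or less the count was again 2 of 6, beside 47.8% of all genes. With DESeq2 on the recovered fragments Csn1s1 was called in addition (DESeq2 adjusted p = 0.0451), which made 3 of 6 milk genes beside 49.4% of all genes. Mfge8 was called in 17 of 18 alternatives of this test, the exception being litters 3 and 4 left out (limma adjusted p = 0.0667), and Xdh in 12 of 18, being lost without litter 5 (limma adjusted p = 0.154), litter 6 (0.0647) or litter 7 (0.0730) among others. Btn1a1 was called once litter 4 was left out (F = 11.3, limma adjusted p = 0.00752), where 39.6% of all genes were called.

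The share of the variance over the 14 mice that went with the litter was 85.2% for Mfge8 and 81.9% for Xdh, above the median of 73.9% for all genes. It was 58.7% for Btn1a1, 56.3% for Csn3, 51.9% for Csn1s1 and 42.8% for Lalba, below that median. None of these genes passed the limma litter test on all litters. The share takes no account of the number of litters. With 7 litters among 14 mice it is large even where litters do not differ. The genotype took between 0.154% (Xdh) and 5.72% (Lalba). For Lalba and Btn1a1 littermates differed more than mice of different litters did. The median absolute log2 difference for Lalba was 1.34 between littermates and 0.91 between mice of the same genotype from different litters, and for Btn1a1 it was 1.14 and 0.95. For Mfge8 it was 0.30 and 0.66, for Xdh 0.32 and 0.42, for Csn3 0.36 and 0.43 and for Csn1s1 2.44 and 3.44. Over all genes the medians were 0.23 and 0.41. Since littermates also differed in genotype, the littermate difference holds the genotype difference too.

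**Figure D3:**
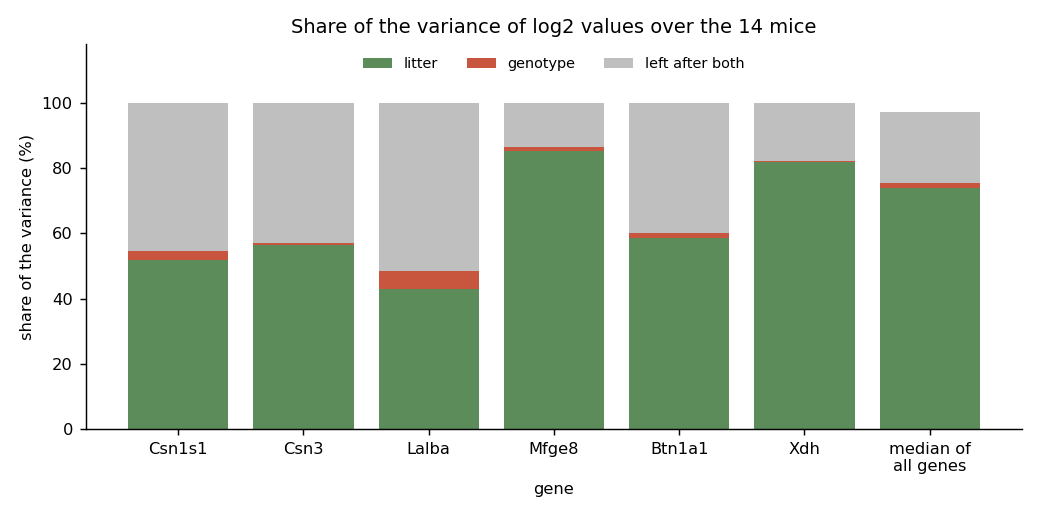
Share of the variance of log2(normalized count + 1) over the 14 mice (y axis, percent) that went with the litter, with the genotype and with the rest, for each milk gene and for the median of all genes (x axis, the last bar being 3 separate medians). The litter share was 85.2% for Mfge8 and 81.9% for Xdh, and the lowest was 42.8% for Lalba. With 7 litters among 14 mice this share is large even where litters do not differ.

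The effect of Usp22 overexpression on the milk genes was examined within littermate pairs. None of the 6 genes passed the test. Under limma with the litter as a block, 0 of the 6 had an unadjusted p of 0.05 or less, against 3.81% of all genes (614 of 16124, with 1.95% higher and 1.85% lower in OE/OE), and edgeR and DESeq2 on the recovered fragments called 0 as well. The median log2 fold change of the 6 genes was 0.12, against -0.0015 for all genes. A limma adjusted p under 0.05 was reached by 2 genes of the table (0.0124%), neither of them a milk gene. All 6 limma adjusted p were 1.00.

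Csn1s1 was higher in the OE/OE mouse in 4 of 7 pairs and lower in 3. Its within-pair log2 changes ran from -4.88 in litter 1 to 6.55 in litter 4, and the mean log2 fold change was 0.83 (SE 1.12, 95% interval -1.69 to 3.35, limma unadjusted p = 0.477). This interval spans folds from 0.310 to 10.2, so neither a large rise nor a large fall could be excluded for Csn1s1. The sign of the mean rested on litter 4, without which it was -0.12 (SE 0.90).

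Csn3 was higher in the OE/OE mouse in 4 of 7 pairs, with changes from -1.33 in litter 5 to 1.20 in litter 3. Its mean log2 fold change was 0.11 (SE 0.26, 95% interval -0.48 to 0.69, limma unadjusted p = 0.691). Lalba was lower in the OE/OE mouse in 5 of 7 pairs, with changes from -2.39 in litter 4 to 2.13 in litter 3. Its mean was -0.51 (SE 0.51, 95% interval -1.65 to 0.63, limma unadjusted p = 0.338), the only negative mean of the 6. Without litter 3 it was -0.95 (SE 0.42, limma unadjusted p = 0.0535), and without litter 4 it was -0.20 (SE 0.48). On the untransformed scale the mean of Lalba was higher in OE/OE (316 ± 418, SD, n = 7) than in WT (285 ± 119, SD, n = 7), while the median was lower, with OE/OE 3 at 1235.

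Among the genes of the fat globule, Btn1a1 was higher in the OE/OE mouse in 5 of 7 pairs, with increases of 0.66 to 1.44 in those pairs, while the changes in litters 7 and 4 were -0.14 and -3.02. Its mean log2 fold change was 0.27 (SE 0.47, 95% interval -0.78 to 1.32, limma unadjusted p = 0.579). Without litter 4 it was 0.82 (SE 0.18, limma unadjusted p = 0.00111, limma adjusted p = 0.521), and 8.47% of all genes were called without this litter. With litters 3 and 4 both left out it was 0.85 (SE 0.20, limma unadjusted p = 0.00248, limma adjusted p = 0.590). Mfge8 was higher in 4 of 7 pairs, with changes from -0.51 to 0.85 and a mean of 0.13 (SE 0.16, 95% interval -0.24 to 0.50, limma unadjusted p = 0.439). Xdh was higher in 3 of 7 pairs, with changes from -0.35 to 0.46 and a mean of 0.03 (SE 0.12, 95% interval -0.23 to 0.29, limma unadjusted p = 0.806). For Xdh the interval spans folds from 0.853 to 1.22, the narrowest of the 6.

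**Figure D4:**
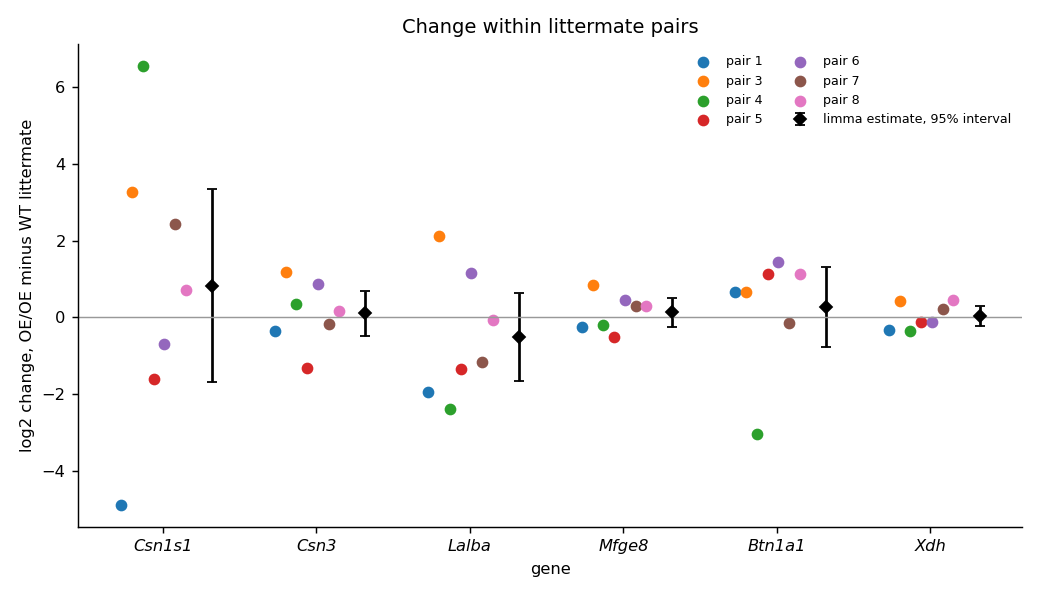
Log2 change of each milk gene (x axis) from the WT to the OE/OE littermate (y axis), with 1 point per pair and the limma estimate with its 95% interval in black. All 6 intervals include 0, and the pair of litter 4 lay farthest out for Csn1s1 (6.55) and Btn1a1 (-3.02), in opposite directions.

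The exact two-sided sign-flip test over the 7 pairs called none of the 6 genes either. Its p was 0.547 for Csn1s1, 0.797 for Csn3, 0.406 for Lalba, 0.484 for Mfge8, 0.688 for Btn1a1 and 0.859 for Xdh, where the smallest p that 128 patterns allow is 0.0156. With the adipocyte marker score (mean log2 level) as a covariate the log2 fold change of Csn1s1 was -2.02 (SE 0.82, limma unadjusted p = 0.0336, limma adjusted p = 0.250). That of Btn1a1 was 1.12 (SE 0.51, limma unadjusted p = 0.0535, limma adjusted p = 0.297). This fit called 2785 of the 16124 genes. The adipocyte score was itself higher in the OE/OE mouse in only 1 of 7 pairs, so it overlaps with genotype in this fit.

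The highest mouse was the same for most milk genes, while the lowest values lay in different mice. OE/OE 3 was the highest of 14 for 5 of the 6 genes, and the milk genes took 0.381% of its fragments. WT 1 was among the highest 3 of 14 for 4 genes, with 0.233% of the fragments. OE/OE 4 was the lowest for Lalba and Btn1a1, OE/OE 5 for Csn3, OE/OE 6 for Csn1s1, and WT 8 for Mfge8 and Xdh. In bulk RNA, fewer cells of a type and less RNA per cell cannot be told apart, and this holds for every level given here.

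Markers of other cells moved with some of these mice. The 9 lymphocyte markers in the table had a mean log2 level of 7.55 in WT 1 and 5.59 in OE/OE 3, the highest and second highest of 14, against medians of 4.62 in WT and 4.67 in OE/OE. The same mice had the highest milk scores, the mean z of Csn1s1, Csn3 and Lalba, at 1.86 in OE/OE 3 and 1.10 in WT 1. Close below OE/OE 3 in lymphocyte level lay WT 3 (5.40), OE/OE 1 (5.25) and OE/OE 6 (5.08). Their milk scores were 0.16, -0.29 and 0.14. The 21 proliferation genes had a mean log2 level of 10.2 in OE/OE 4, against 5.90 to 9.30 in WT and 6.31 to 8.86 in the other OE/OE mice. In the same mouse the adipocyte score (6.18), the fibroblast score (10.7) and the endothelial score (10.7) were the lowest of the 14. So were its scores for the other secretory genes (9.81), lipid synthesis genes (10.8), luminal progenitor markers (11.1) and macrophage markers (8.41). Its pan-epithelial score (15.2) was in contrast the second highest of the 14, below OE/OE 1 (15.4). Its score for the prolactin, STAT5 and alveolar regulator genes (11.51) lay above the medians of WT (11.43) and OE/OE (11.45). The part of these cells in the milk gene levels was not tested. None of the marker genes in the table was at 0 in any library.

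**Figure D5:**
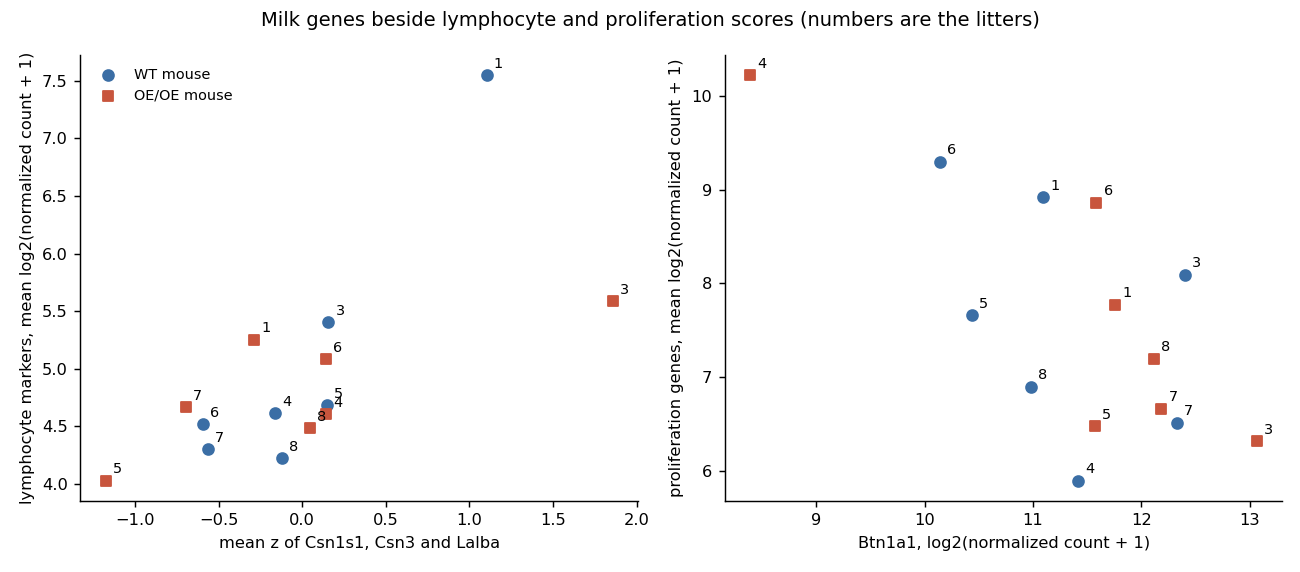
Left, mean log2(normalized count + 1) of 9 lymphocyte markers (y axis) against the mean z of Csn1s1, Csn3 and Lalba (x axis). Right, the same mean of 21 proliferation genes (y axis) against log2(normalized count + 1) of Btn1a1 (x axis). Each point is a mouse, numbered by litter. On the left WT 1 stands apart on both axes and OE/OE 3 on the x axis alone. On the right OE/OE 4 stands apart at 10.2 and 8.39.

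The pathways around the milk genes were read from longer lists. Of 35 other genes of secretory differentiation in the table, Muc1, a mucin of the apical membrane, was higher in OE/OE (log2 fold change 0.49, SE 0.17, limma unadjusted p = 0.0199) and Slc28a3, a nucleoside transporter, was lower (-0.78, SE 0.31, limma unadjusted p = 0.0316), and the median was 0.02. Of 30 genes of prolactin signaling, STAT5 and the alveolar regulators, 0 were called by limma at an unadjusted p of 0.05 or less, with Gata3 (0.21, SE 0.10, limma unadjusted p = 0.0668) and the STAT5 target Cish (0.23, SE 0.11, limma unadjusted p = 0.0733) having the smallest p. At this threshold 3.81% of all genes were called, 1.95% higher and 1.85% lower. Of 23 genes of fatty acid and lipid synthesis, Acly, which makes cytosolic acetyl-CoA, was higher (0.19, SE 0.07) and Scd1, a desaturase, was lower (-0.39, SE 0.15). Every limma adjusted p of these genes was 1.00.

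The same lists were examined between litters. Of the 35 secretory genes 16 (45.7%) were called at a limma adjusted p under 0.05, of the 30 prolactin and STAT5 genes 13 (43.3%), and of the 23 lipid genes 9 (39.1%), beside 33.3% of all genes. Among the regulators the smallest p belonged to Tph1, which makes serotonin (limma adjusted p = 0.00343), the progesterone receptor gene Pgr (limma adjusted p = 0.00350) and Stat5a (limma adjusted p = 0.00779). Of 13 markers of hormone-sensing luminal cells, 9 (69.2%) differed between litters, and Cited1 had F = 23.7 (limma adjusted p = 0.00343). Tph1 and Pgr are in this list as well as among the regulators, so the counts overlap. Of 11 markers of luminal progenitors, from which alveolar cells arise, 1 differed between litters, Cxcl1, and Aldh1a3 (-0.46, SE 0.13, limma unadjusted p = 0.00508) and Cxcl1 (-0.72, SE 0.24, limma unadjusted p = 0.0151) were lower in OE/OE. Neither reached a limma adjusted p under 0.05 for genotype. The median log2 fold change of the 11 markers was -0.06, and 1.85% of all genes were lower at an unadjusted p of 0.05 or less. Elf5, the transcription factor of the alveolar lineage, did not pass either test (log2 fold change 0.14, SE 0.18, limma adjusted p between litters 0.130).

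The other marker lists describe marker RNA in the libraries, which does not give the share of each cell type. Of 10 pan-epithelial genes Cldn7 and Elf3 were higher in OE/OE, and of 13 hormone-sensing markers Cited4 was. None of the 12 basal, 10 endothelial, 10 macrophage and 9 lymphocyte markers was called by limma at an unadjusted p of 0.05 or less. Of 11 adipocyte markers 6 were lower in OE/OE (median log2 fold change -1.02), as were 3 of 12 fibroblast markers (median -0.44), and of 21 proliferation genes Aurka alone was lower. By the same rule 1.95% of all genes were higher and 1.85% lower in OE/OE. No gene of these lists reached a limma adjusted p under 0.05 for genotype. Litters differed in 5 of 12 basal, 2 of 10 pan-epithelial, 5 of 10 macrophage, 2 of 9 lymphocyte, 1 of 11 adipocyte, 1 of 12 fibroblast, 0 of 10 endothelial and 1 of 21 proliferation genes. The litter test called 33.3% of all genes.

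The genes whose levels most resembled the milk score were ranked by Pearson correlation, as a description. Over the 14 libraries the 10 most alike outside the members were Gm9892 (r = 0.903), Txndc16 (0.897), Ctss (0.862), Pdlim3, Taf11, Clec4n, Gpr183, Cxcr4, Lck and Cd74 (0.838). Ctss encodes cathepsin S, Lck a kinase of T cells and Cd74 the invariant chain. The macrophage score did not rank the mice with the highest milk scores alike, at 9.36 in OE/OE 3 and 8.68 in WT 1 against a WT median of 8.99. The points share the litters and the depth, and WT 1 and OE/OE 3 stand apart in the milk score. For the within-pair changes, 7 points, the 10 most alike were Senp2 (r = 0.990), Cd14 (0.989), Liph, Gm527, Pqlc1, St8sia4, Foxo1, Abcb9, Ckmt1 and Irx2 (0.971), so no gene was named on both scales.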

How the data were processed

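RNA of MECs from 7 WT and 7 OE/OE mice was sequenced as paired reads from polyA libraries. The authors mapped the reads to mm10 with TopHat 2.0.10, counted fragments on GENCODE genes with HTSeq 0.6.0, dropped genes short of 10 fragments in 7 samples and scaled the counts by DESeq 1.18.0 size factors. The deposited values are thus a linear signal (normalized counts), and no samples were pooled. Whether counting used the strand was not given in the sources used here, so reads of overlapping genes may be shared. In each library 100% of the values were whole multiples of 1 fragment (tolerance 0.01), which gave the depth, and shallow libraries have less precise low counts.

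Genotypes were compared with limma 3.58.1 in R 4.3.3 (trended eBayes) on the log2 of the normalized count with 1 added, a scale that understates the change of low genes, with the littermate pair as a block and a threshold of 0.05 on the unadjusted p, with Benjamini-Hochberg adjustment over 16124 genes beside it. The pairs are littermates by the labels and methods, and deviations of same-numbered mice correlated by 0.171 to 0.748 across genes. Litters were compared with the moderated F test, at an adjusted p under 0.05. A sign-flip test over the 7 pairs was run for each member. Levels per length used the longest coding transcript of GENCODE M21. edgeR 4.0.16 and DESeq2 1.42.0 on the recovered fragments, other scalings, covariates and left-out pairs were alternatives, of which the removal of pairs 1 and 8 or 3 and 4 and the exon-union lengths were added after seeing the data. Both limma tests were tested on simulated counts with known changes.

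The genes named were all members in the table, Usp22, up to 3 genes per list with the smallest p in each test, called genes of a list, and the 10 most alike on each scale. The members and lists were chosen with earlier results of these data known.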

Additional observations from a re-analysis of the deposited data

Results flagged for a closer look

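In 18 groups of 7 values (12 of member and genotype, 6 of within-pair changes), 3 had a value whose gap to its nearest neighbour exceeded the 95% critical value of Dixon's test as a share of the range, where chance gives about 0.9. Csn3 in WT 1 was at 14.1 on the log2(normalized count + 1) scale, against 13.5 in the next WT mouse, a gap of 0.692 of the range. Btn1a1 in OE/OE 4 was at 8.39, against 11.6 in the next OE/OE mouse, a gap of 0.680. The within-pair log2 change of Btn1a1 in litter 4 was -3.02, against -0.14 in the next pair, a gap of 0.645. The last pair of values rests on the same mouse.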

How the results depend on the processing

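Mfge8 and Btn1a1 kept the direction of their change under all 23 alternatives run for each, but came close to 0, at 0.013 for Mfge8 without litter 3 and 0.016 for Btn1a1 with litters 1 and 8 left out, and no milk gene reached an adjusted p under 0.05 for genotype in any. The litter test of Mfge8 passed in 17 of 18 alternatives. Without the replicate block, that is the littermate pairing, 182 genes of the table were called in place of 614 and 0 milk genes. With the adipocyte score as a covariate 2785 genes and 1 milk gene, Csn1s1 (log2 fold change -2.02), were called, Csn3 was at -0.22 and Btn1a1 at 1.12. With the proliferation score 1047 genes were called. With litters 3 and 4 left out 1333 genes and 1 milk gene, Btn1a1, were called, Csn1s1 was at -0.80 and Csn3 at -0.16. Lalba was at 0.15 in the paired test on untransformed counts, and Xdh was at -0.019 under quantile normalization and -0.022 when scaled by fragments without the milk genes, where 131 genes of the table were higher and 497 lower against 315 and 299. The cause of these changes was not tested.

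Between litters 1 milk gene was called by limma without trend (4621 genes of the table), 1 under quantile normalization (5478), 1 when scaled by fragments without the milk genes (4819), and 3 by DESeq2 (7971, or 49.4%). Leaving out each litter in turn gave 381 to 1366 genes called for genotype (614 with all litters), with 1366 without litter 4 and 1196 without litter 1, and 0 to 1 milk genes. It gave 3229 to 6390 genes called between litters (5370 with all) and 1 to 3 milk genes. The log2 fold change ranged from -0.12 to 1.78 for Csn1s1, from -0.075 to 0.35 for Csn3, from -0.95 to -0.20 for Lalba, from 0.013 to 0.24 for Mfge8, from 0.073 to 0.82 for Btn1a1 and from -0.044 to 0.092 for Xdh. The Csn1s1 values of 6 libraries rest on fewer than 10 fragments, which limits their precision.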

Other observations

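Of the 35 other genes on the list of secretory differentiation, 16 differed between litters, beside 33.3% of all genes. Those with the smallest p are given. Vamp8, a SNARE protein of secretory vesicles, had F = 25.2 (limma adjusted p = 0.00343), Lif, a cytokine of involution, had F = 23.1 (limma adjusted p = 0.00343), and Aldoc, a glycolytic aldolase, had F = 14.4 (limma adjusted p = 0.00495). Their log2 fold changes within pairs were -0.03 (SE 0.11), -0.23 (SE 0.16) and 0.07 (SE 0.10). Of the lipid genes, Gpam, which starts glycerolipid synthesis, had F = 14.2 (limma adjusted p = 0.00505), Fads1 had F = 13.6 (limma adjusted p = 0.00541) and Acaca had F = 8.64 (limma adjusted p = 0.0136).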
